A study of Homo sapiens with 6 samples.

Results

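The 10 genes described here are ODC1, AMD1, SRM, SMS, MTAP, SAT1, PAOX, OAZ1, OAZ2 and AZIN1, which make polyamines, break them down or set the activity of the first enzyme of the pathway. They were chosen by symbol, and all 10 were present in both deposited tables, which together held 16489 genes. RNA was sequenced from KMS27, an established human multiple myeloma cell line from bone marrow, in 3 libraries of cells given an siRNA against Che-1 (siChe-1) and 3 of cells given a control siRNA (siControl). Che-1 is the protein of the gene AATF, a nuclear factor known to bind RNA polymerase II. Each library was made from 500 ng of total RNA after removal of ribosomal RNA. The labels do not say that the libraries came from separate cultures, so each p-value is set against differences among these 6 libraries that may be technical. The question, from the series title, is how Che-1 bears on growth and on transcription across the genome in myeloma.

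Putrescine, spermidine and spermine are small positively charged molecules that bind RNA and are needed for cell growth. ODC1 (ornithine decarboxylase) makes putrescine from ornithine, AMD1 (S-adenosylmethionine decarboxylase) makes the aminopropyl donor, and the spermidine synthase SRM and the spermine synthase SMS use that donor to lengthen the chain. Each transfer leaves methylthioadenosine, which MTAP returns to the methionine and adenine pools, while SAT1 and PAOX run the chain in reverse, and the antizymes OAZ1 and OAZ2 send ODC1 to the proteasome unless the antizyme inhibitor AZIN1 binds them first.

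The 2 tables answer different questions. The spike-in table holds the authors' group means of reads scaled by added ERCC control RNAs, so that a change is read against the controls. It was built from 5 libraries, 2 of siChe-1 and 3 of siControl, and the reads of nearly every gene in each library, all 10 genes included, could be recovered from the means. The other table holds 3 FPKM per group (fragments scaled by transcript length and by library depth), which compare a gene with the other genes of its library, in a list with positions 1 to 3 and no replicate number. AATF checked the silencing: it had 14.2, 14.2 and 16.9 FPKM in siChe-1 libraries, against 97.0, 88.8 and 119 FPKM in siControl libraries. The groups were far apart, with a log2 change of -2.57 ± 0.11 (SE, limma, adjusted p = 0.000117, n = 3 each). Recovered gene reads ran between 21306955 and 24425530 per library. There were 25.5 and 21.6 gene reads per spike-in read in siChe-1 replicates 1 and 2, against 43.4, 63.4 and 64.9 in siControl replicates 1, 2 and 3. Replicate 3 of siChe-1, which did not enter the spike-in table, had 379232 spike-in reads, within the range of 351573 to 519573 in siControl libraries, whereas the 2 in the table had 835414 and 1041244. How that siChe-1 library would move the spike-in comparison was not tested. All 8 plasma cell markers were listed, with summed FPKM of 722 to 778 in siChe-1 libraries and 770 to 880 in siControl libraries. They moved in both directions: of 7 tested on FPKM, limma called 2 lower and 1 higher, where 15.1% of all genes were called each way. XBP1, a transcription factor of secretory cells and the most abundant of them over all 6 libraries, had a log2 change of -0.47 (adjusted p = 0.0201), MZB1 of -0.46 (adjusted p = 0.0398) and the surface protein gene CD38 of 0.74 (adjusted p = 0.00430), all by limma. The part of these shifts in the results on the polyamine genes was not tested. Of the markers of other cells, CD3G (T cells) and HBB (red cells) were below 1 FPKM in every library, and the remaining T cell and red cell markers and all of the monocyte and stromal markers were not listed in the FPKM table. Fewer cells and less RNA per cell cannot be told apart in such bulk libraries. Neither can be read from the spike-in scale, as the sources used here do not state when the spike-ins were added.

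Promoter sequence is shown for SRM and ODC1 because these 2 genes held the E-box CACGTG, the letters bound by MYC and its relatives. Sequences are from RefSeq, build GRCh38.p14, 5′ to 3′ on the minus strand, with the E-box in capitals. The first is the DNA upstream of SRM at chr1:11060025-11060268, the second lies in intron 1 of ODC1 at chr2:10448013-10448120, and the last holds the other ODC1 match at chr2:10447990-10448019.
SRM upstream: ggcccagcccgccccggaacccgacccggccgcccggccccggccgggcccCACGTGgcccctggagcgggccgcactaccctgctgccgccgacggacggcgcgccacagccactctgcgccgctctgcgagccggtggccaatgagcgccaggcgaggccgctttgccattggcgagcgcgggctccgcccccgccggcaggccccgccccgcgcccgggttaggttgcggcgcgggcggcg
ODC1 intron 1: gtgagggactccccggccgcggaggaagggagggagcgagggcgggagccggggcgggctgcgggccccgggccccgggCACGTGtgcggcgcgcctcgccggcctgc
ODC1 second E-box: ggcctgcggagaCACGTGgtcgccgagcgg
CACGTG reads the same on both strands and was the only motif searched, in windows from 250 bases before to 50 bases after each RefSeq start. In SRM it began 199 bases before the start. In ODC1 both matches lay at an inner start, the first beginning 29 bases before it and the second 5 bases after it, while the window at the outer ODC1 start held none. Of the 8 genes looked up, these 2 held the motif, and AMD1, SMS, MTAP, SAT1, OAZ1 and OAZ2 did not. Over all windows 7.26% held it (2548 of 35116), or 8.77% of genes (2396 of 27305), and 0.664% of windows held at least 2. A match describes the letters only. MYC itself had 153, 143 and 138 FPKM in siChe-1 libraries, against 310, 285 and 284 FPKM in siControl libraries, a log2 change of -0.92 ± 0.097 (SE, limma, adjusted p = 0.00109). Whether the fall of MYC had a part in the changes below was not tested.

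ODC1, SMS and MTAP fell relative to other genes after Che-1 silencing, by 1.28- to 1.47-fold, and AMD1 and SRM were lower by similar amounts without passing the same test. The catabolic gene SAT1 and the regulators OAZ1, OAZ2 and AZIN1 had log2 changes between -0.12 and 0.17 on that scale, and none was called. Against the spike-ins, 9 of the 10 genes fell in the authors' test, as did most genes of the library. The 4 most negative on the spike-in scale, SMS, ODC1, MTAP and AMD1, were also the 4 whose deposited FPKM did not overlap between groups. In those FPKM every siChe-1 library was below every siControl library for 30.3% of 6285 genes, and above for 14.9%. Both tables were made from this set of libraries, so the match between the scales is not independent evidence.

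**Figure D1:**
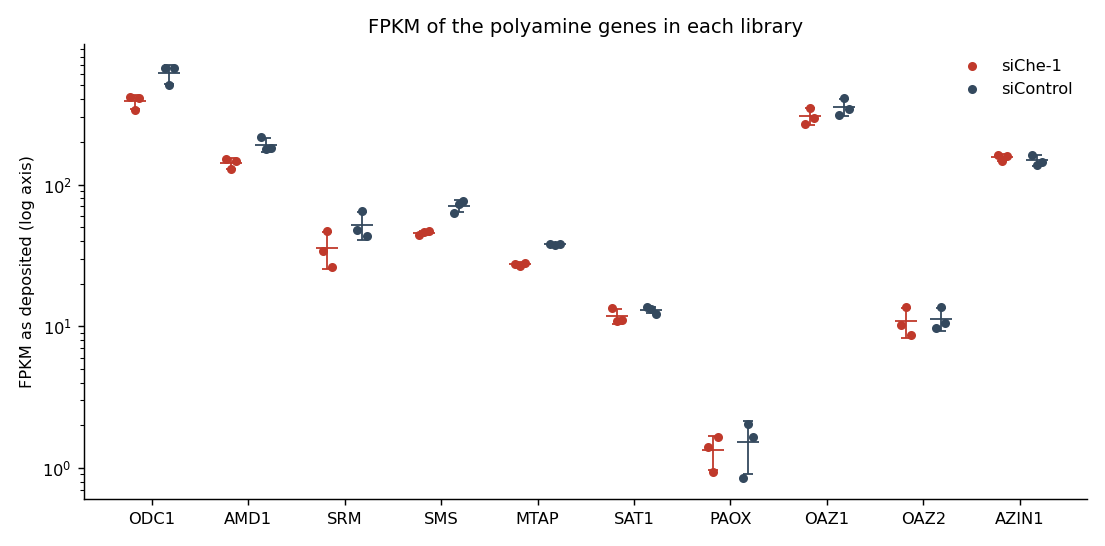
FPKM as deposited (log axis) of each polyamine gene in the 3 siChe-1 libraries (red, left) and the 3 siControl libraries (dark, right); points are libraries and bars the mean ± SD. ODC1 lies highest, at means of 386 FPKM in siChe-1 and 607 FPKM in siControl, and PAOX lowest, and the groups are apart for ODC1, AMD1, SMS and MTAP.

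ODC1, the entry enzyme (chr2:10580508-10588453 in hg19, minus strand), was among the most abundant messengers of these cells. It had 417, 336 and 406 FPKM in siChe-1 libraries, against 660, 500 and 662 FPKM in siControl libraries. Every siChe-1 library was below every siControl library, and the library at list position 2 was the lowest of each group. The means were 386 ± 44.1 FPKM in siChe-1 and 607 ± 93.3 FPKM in siControl (SD, n = 3 each), and the siControl mean ranked 129 of 12075 genes. Rescaled by the median of ratios, the log2 change was -0.55 ± 0.14 (SE, limma, adjusted p = 0.0207), a level 1.47-fold lower. This call was lost, with adjusted p of 0.0540 to 0.0747 by limma, on leaving out the siChe-1 library of position 2 or of position 3, or the siControl library of position 1 or of position 3. Against the spike-ins ODC1 had 10533 and 7303 normalized reads in siChe-1 replicates 1 and 2, against 27221, 31275 and 39143 in siControl replicates 1, 2 and 3. The groups were again apart, and the authors' deposited table gave a 3.65-fold lower mean (log2 -1.87, adjusted p = 0.000159), with 7.56% of genes more negative.

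AMD1 (chr6:111195987-111216913 in hg19), whose product supplies the aminopropyl donor for both later steps, stood below ODC1 in abundance. It had 151, 128 and 146 FPKM in siChe-1 libraries, against 215, 179 and 180 FPKM in siControl libraries. The groups did not overlap, although the siControl library at list position 1 stood above the other two. On the rescaled values the log2 change was -0.34 ± 0.11 (SE, limma, adjusted p = 0.0586), which missed the 0.05 threshold. The call depended on the setting: limma gave an adjusted p of 0.0476 with a minimum of 1 FPKM in place of 10. With no rescaling limma gave 0.0291, and edgeR with TMM on the recovered reads gave -0.49 (adjusted p = 0.00460). AMD1 stayed uncalled by limma with the upper quartile (adjusted p = 0.0914) and on leaving out any 1 library (adjusted p of 0.0733 to 0.158). Against the spike-ins AMD1 had 4738 and 4055 normalized reads in siChe-1, against 11768, 15394 and 16471 in siControl. Both siChe-1 libraries were below all siControl libraries, as they were for 89.5% of all genes. The authors' deposited table gave a 3.31-fold lower mean (log2 -1.73, adjusted p = 0.000499), with 11.9% of genes more negative. AMD1 has 4 processed pseudogenes, SRM 2 and MTAP 2 in GENCODE v29, and reads of near-identical copies may be split between them.

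SRM (chr1:11114649-11120091 in hg19, minus strand), which makes spermidine, had 33.9, 46.8 and 26.2 FPKM in siChe-1 libraries, against 47.9, 65.1 and 43.2 FPKM in siControl libraries. The groups overlapped in one place, since the siChe-1 library at list position 2 exceeded the siControl library at list position 3, and position 2 was the highest in each group. The log2 change on rescaled values was -0.46 ± 0.24 (SE, limma, adjusted p = 0.187), so the SE was wide beside that of the other synthesis genes. Leaving out 1 library moved the value between -0.24 and -0.67: limma gave -0.67 (adjusted p = 0.0472) without siChe-1 position 2, -0.24 (adjusted p = 0.491) without siChe-1 position 3 and -0.27 (adjusted p = 0.387) without siControl position 2. With all recovered reads, edgeR with TMM gave -0.34 (adjusted p = 0.0694). Against the spike-ins SRM had 892 and 697 normalized reads in siChe-1, against 1722, 3196 and 2270 in siControl. Here the siChe-1 libraries were below all siControl libraries, as they were for 89.5% of all genes. The authors' deposited table gave a 3.01-fold lower mean (log2 -1.59, adjusted p = 0.0136), with 19.0% of genes more negative.

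SMS (chrX:21958715-22012955 in hg19), which makes spermine, had 44.1, 46.1 and 46.9 FPKM in siChe-1 libraries, against 62.7, 73.4 and 75.9 FPKM in siControl libraries. The siChe-1 libraries were close together and all below the siControl libraries. SMS fell by 0.52 ± 0.093 on the log2 scale (SE, limma, adjusted p = 0.00661), or 1.43-fold, and no alternative setting or left-out library ended that call on the values by gene. The spike-in-normalized reads were 1246 and 1107 in siChe-1, against 3034, 5069 and 4975 in siControl. The authors' deposited table gave a log2 change of -1.89 (adjusted p = 0.00138), with 6.94% of genes more negative, the most negative value of the 10 genes.

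MTAP (chr9:21802635-21865969 in hg19), the salvage enzyme for the by-product of both synthases, lies beside CDKN2A in a region often deleted in cancers, and its transcript was present in every library. It had 27.7, 26.6 and 28.0 FPKM in siChe-1 libraries, against 38.0, 37.7 and 37.8 FPKM in siControl libraries. Relative to their means these were the tightest groups of the 10 genes, and they did not overlap. MTAP fell by 0.36 ± 0.067 on the log2 scale (SE, limma, adjusted p = 0.00754), or 1.28-fold, and was called under every alternative setting and left-out library run on the values by gene. Against the spike-ins it had 1804 and 1659 normalized reads in siChe-1, against 4270, 6510 and 6643 in siControl, and the authors' deposited table gave a log2 change of -1.75 (adjusted p = 0.000611). Of its 5 listed neighbours on chromosome 9, 3 could be tested on FPKM and limma called 1 of them higher and 0 lower (0 lower also at an unadjusted p under 0.05), against 15.1% of all genes each way. By edgeR with TMM 2 of 4 were higher, KLHL9 and CDKN2B, and 0 lower, against 14.3% and 15% of genes. CDKN2A, a cell cycle inhibitor gene and the most abundant of them, averaged 141 ± 12.2 FPKM in siChe-1 and 169 ± 6.29 FPKM in siControl (SD, n = 3 each), with a log2 change of -0.17 ± 0.10 (SE, limma, adjusted p = 0.262, or 0.0463 with list position as a block). KLHL9, a ubiquitin ligase adaptor gene, averaged 21.6 ± 0.841 FPKM in siChe-1 and 15.3 ± 0.240 FPKM in siControl, a rise of 0.56 ± 0.068 on the log2 scale (SE, limma, adjusted p = 0.00174). Against the spike-ins KLHL9 was lower, uncalled, in the authors' deposited table (log2 -0.76, adjusted p = 0.129).

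**Figure D2:**
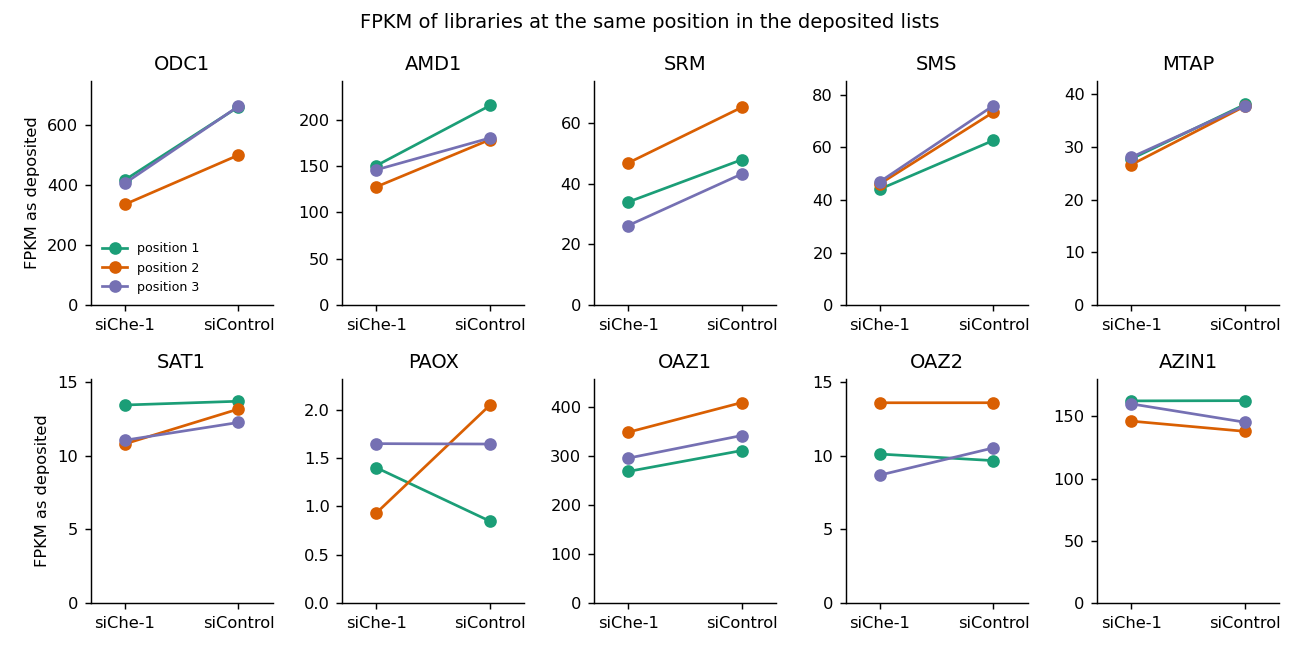
FPKM as deposited (axis from 0) of each gene, with lines joining the siChe-1 library (left) and the siControl library (right) at the same position in the deposited lists. The lines for ODC1, AMD1, SRM, SMS, MTAP, SAT1 and OAZ1 go up to siControl at all 3 positions, while those of PAOX cross. After rescaling, SAT1 was higher in siChe-1 at position 1 (log2 difference 0.079).

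SAT1 (chrX:23801275-23804327 in hg19), the acetyltransferase that starts polyamine breakdown, had 13.5, 10.8 and 11.1 FPKM in siChe-1 libraries, against 13.7, 13.2 and 12.3 FPKM in siControl libraries. The groups overlapped through the siChe-1 library at list position 1. The log2 change was -0.055 ± 0.12 (SE, limma, adjusted p = 0.749), so no change relative to other genes was detected. SAT1 is known to be controlled largely after transcription by polyamines themselves, which these data do not measure. Against the spike-ins it had 226 and 166 normalized reads in siChe-1, against 353, 536 and 484 in siControl, and the authors' deposited table gave a 2.34-fold lower mean (log2 -1.22, adjusted p = 0.0135). That value sat near the middle of all genes, with 52.5% more negative.

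PAOX (chr10:135192741-135205198 in hg19), the peroxisomal oxidase of acetylated polyamines, had the fewest reads of the 10, with 80 and 75 recovered reads in siChe-1 replicates 1 and 2, against 67, 94 and 65 in siControl replicates 1, 2 and 3. It had 1.40, 0.934 and 1.65 FPKM in siChe-1 libraries, against 0.846, 2.05 and 1.65 FPKM in siControl libraries. The groups overlapped and PAOX stayed under the minimum of 10 FPKM for the limma test. It was the member the authors did not call: the authors' deposited table gave a log2 change of -1.22 (adjusted p = 0.0952), with 52.8% of genes more negative. By edgeR on the recovered reads with spike-in size factors it was -1.21 ± 0.43 (SE, adjusted p = 0.00727), a fit that called 84.4% of all genes lower.

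OAZ1 (chr19:2269520-2273487 in hg19), the main antizyme, was the second most abundant of the 10 per length, with means of 304 ± 40.7 FPKM in siChe-1 and 354 ± 50.1 FPKM in siControl (SD, n = 3 each). It had 268, 348 and 296 FPKM in siChe-1 libraries, against 311, 409 and 342 FPKM in siControl libraries. The groups overlapped and in each the library at list position 2 was the highest, the reverse of the order seen for ODC1. The log2 change was -0.12 ± 0.15 (SE, limma, adjusted p = 0.577). The authors' deposited table gave a 2.74-fold lower mean against the spike-ins (log2 -1.45, adjusted p = 0.0249), with 29.5% of genes more negative.

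OAZ2 (chr15:64979773-64995462 in hg19), a second antizyme, had 10.1, 13.6 and 8.70 FPKM in siChe-1 libraries, against 9.68, 13.6 and 10.5 FPKM in siControl libraries. The groups overlapped throughout, the library at list position 2 was again the highest of each, and the log2 change was 0.022 ± 0.19 (SE, limma, adjusted p = 0.946). Its sign turned with the scaling, as with no rescaling it was -0.064. Both antizymes are known to need a polyamine-dependent frameshift during translation, which RNA levels do not show. Against the spike-ins the authors' deposited table gave OAZ2 the smallest fall of the 10 genes, 2.24-fold (log2 -1.17, adjusted p = 0.0315), with 58.2% of genes more negative.

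AZIN1, an inactive relative of ODC1 that frees it from antizyme, had 162, 146 and 160 FPKM in siChe-1 libraries, against 163, 138 and 145 FPKM in siControl libraries. The groups overlapped, and the means were 156 ± 8.78 FPKM in siChe-1 and 149 ± 12.7 FPKM in siControl (SD, n = 3 each). The rescaled log2 change was 0.17 ± 0.098 (SE, limma, adjusted p = 0.237), the highest of the 9 genes tested. Against the spike-ins AZIN1 had 5851 and 5587 normalized reads in siChe-1, against 10629, 14397 and 14355 in siControl. The siChe-1 libraries were below all siControl libraries, as they were for 89.5% of all genes. The authors' deposited table gave a 2.30-fold lower mean (log2 -1.20, adjusted p = 0.0102), near the middle of all genes, with 55.0% more negative. The sign of the AZIN1 difference thus depended on the scale.

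**Figure D3:**
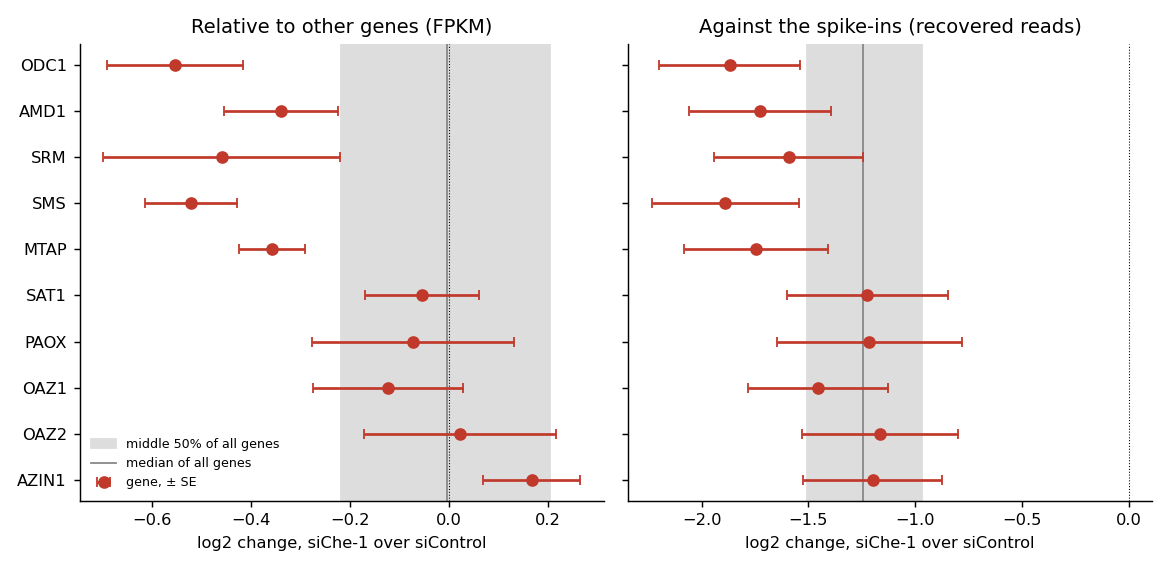
Log2 change of each gene, siChe-1 over siControl, with its SE, relative to other genes (left, limma on FPKM; PAOX from the fit with a minimum of 1 FPKM) and against the spike-ins (right, edgeR on recovered reads). The grey band holds the middle 50% of all genes and the line is their median, -0.00396 on the left and -1.25 on the right; ODC1, AMD1, SRM, SMS and MTAP lie to the left of the band in both panels.

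Counted together on FPKM, limma called 3 of the 9 genes tested lower (ODC1, SMS and MTAP) and 0 higher, where 15.1% of 6285 genes were called lower and 15.1% higher. At an unadjusted p under 0.05 these counts were 4 lower and 0 higher, a cut for which the share over all genes was not counted. By adjusted p, edgeR with TMM on the recovered reads called 4 of 10 lower, adding AMD1, and 0 higher, against 15% and 14.3% of all genes. The median log2 change of the 9 genes was -0.34, against -0.00396 over all genes tested. With a minimum of 1 FPKM, limma called 4 of 10 lower and 0 higher, against 13.8% and 13.4% of all genes. In the FPKM as deposited, every siChe-1 library was below every siControl library for 4 of the 9 genes, against 30.3% of genes.

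Libraries at positions 1 and 2 of the 2 deposited lists deviated alike across genes (r = 0.405 and 0.658). At position 3 this was weak (r = 0.18), and both libraries there were closer to a position 1 library of the other group. The 10 genes by themselves were not tested for this. Relative to the rescaled siControl library at its own position, ODC1 differed by -0.55, -0.51 and -0.60 on the log2 scale and SRM by -0.37, -0.41 and -0.59. AMD1 differed by -0.40, -0.42 and -0.19, and SMS by -0.39, -0.60 and -0.57. AZIN1 was the one gene of the 9 that was higher at each position, by 0.11, 0.14 and 0.25. In all, 6 genes were lower at each position, against 37.6% of all genes, and 1 was higher, against 37.9%. With list position as a block, an alternative chosen after seeing the data, limma called ODC1, SMS and MTAP and also SRM (adjusted p = 0.00123), AMD1 (adjusted p = 0.00513) and AZIN1 (higher, adjusted p = 0.0351). That is 5 lower and 1 higher of 9, against 29.3% and 28.5% of all genes. The labels do not state that these positions mark shared batches.

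On the spike-in scale 9 of 10 genes fell and 0 rose in the authors' deposited table, where 63.5% of 12591 genes were called lower and 0.0635% higher. With edgeR on the recovered reads and the spike-in size factors all 10 were called lower, against 84.4% of genes, and 0 higher (0 also at an unadjusted p under 0.05). Both siChe-1 libraries were below every siControl library for all 10 genes, as they were for 89.5% of all genes. The median log2 change in the authors' deposited table was -1.52 over the 10 genes and -1.25 over all genes tested. These shares describe the whole library, and the spike-in scale factor of a library moves all its genes together: the median gene stood at -1.12 and -1.38 in siChe-1 replicates 1 and 2 and at -0.41, 0.18 and 0.15 in siControl replicates 1, 2 and 3, on the log2 scale against the siControl mean. Without siChe-1 replicate 2, the median log2 change by edgeR was -1.39 over the 10 genes and -1.12 over all genes. Without siChe-1 replicate 1 these medians were -1.67 and -1.38. Each of these fits holds 1 siChe-1 library, which is assumed to vary like the siControl libraries, so no count of calls is given.

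**Figure D4:**
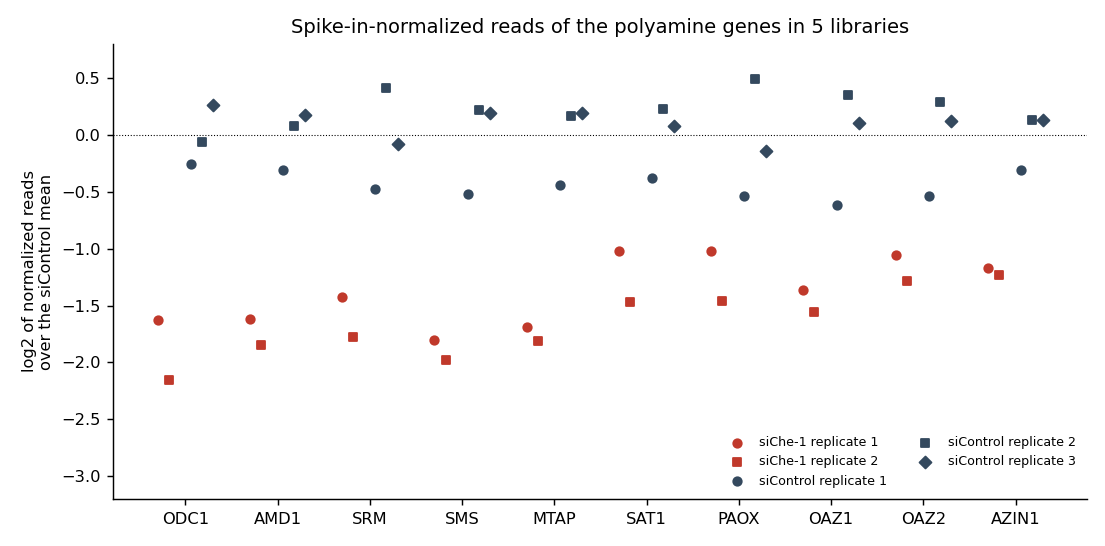
Log2 of the spike-in-normalized reads of each gene over its siControl mean, in the 2 siChe-1 libraries (red, left in each gene) and the 3 siControl libraries (dark, right) of the spike-in table. All siChe-1 points lie below all siControl points of the same gene, and siControl replicate 1 is the lowest siControl library throughout.

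Ratios between genes within a library do not depend on the scale factor of that library, and 6 were tested. The ratio of ODC1 to AZIN1, as log2 of FPKM plus 1, was 1.35, 1.19 and 1.34 in siChe-1 libraries, against 2.01, 1.85 and 2.18 in siControl libraries. The groups did not overlap, and the difference of -0.72 had an exact two-sided permutation p = 0.1, the smallest that 3 against 3 allow (0.2 after Benjamini-Hochberg adjustment over 6 ratios). The ratio of ODC1 to OAZ1, enzyme to antizyme, was 0.63, -0.054 and 0.46 in siChe-1 libraries, against 1.08, 0.29 and 0.95 in siControl libraries. These groups overlapped (difference -0.43, exact permutation p = 0.3, adjusted p = 0.45), although the ratio was lower at all 3 list positions, with differences of -0.45, -0.34 and -0.50. It was -0.23 without siChe-1 position 2, -0.27 without siControl position 1 and -0.67 without siControl position 2.

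The ratio of ODC1 to AMD1 averaged 1.44 ± 0.046 in siChe-1 and 1.65 ± 0.20 in siControl, with groups that did not overlap (SD, n = 3 each, exact permutation p = 0.1, adjusted p = 0.2). On the recovered reads of 5 libraries these groups overlapped (difference -0.16, exact permutation p = 0.4), and on FPKM the difference of -0.21 was -0.11 without siControl position 3. SAT1 to SMS, breakdown to synthesis, averaged -1.88 ± 0.20 in siChe-1 and -2.35 ± 0.21 in siControl (SD, n = 3 each). That difference of 0.47 also had groups apart and the smallest p (exact permutation p = 0.1, adjusted p = 0.2). SRM to SMS differed by 0.062 (exact permutation p = 0.9) and MTAP to SRM by 0.10 (exact permutation p = 0.8), both within the spread between libraries, and both changed sign when single libraries were left out. On FPKM the groups were apart for 3 of the 6 ratios, and how often they are apart for other pairs of genes was not counted. For single genes the deposited FPKM were apart with siChe-1 below for 30.3% of genes and above for 14.9%. This number of libraries cannot bring the exact permutation p of any of the 6 ratios under 0.05.

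**Figure D5:**
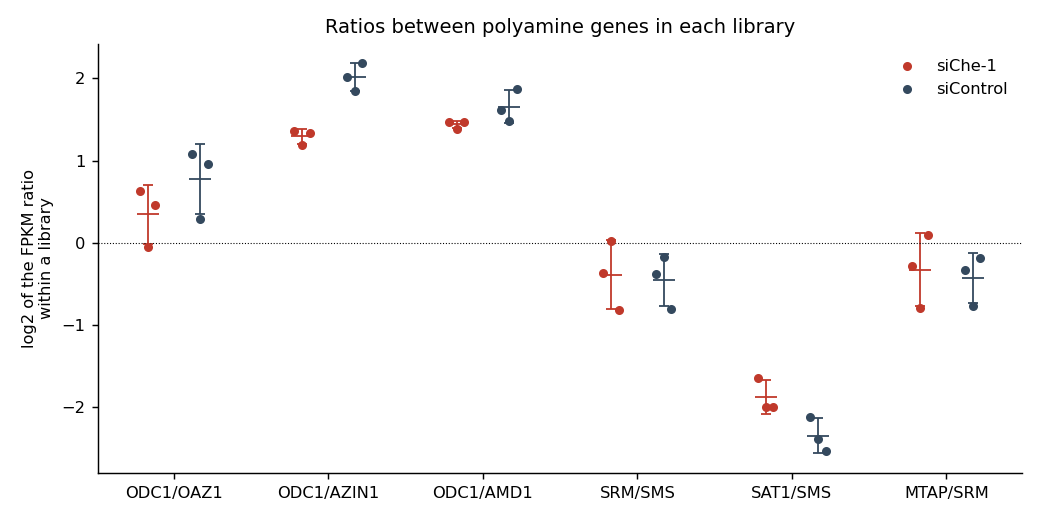
Log2 ratio of FPKM plus 1 between pairs of polyamine genes within each of the 3 siChe-1 libraries (red, left) and 3 siControl libraries (dark, right), with the mean ± SD. The groups are apart for ODC1/AZIN1, ODC1/AMD1 and SAT1/SMS and overlap for the other three.

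Some of these genes have more than one annotated transcript, whose FPKM the authors estimated separately. For AMD1, transcript NM_001634 had 89.3, 82.0 and 87.5 FPKM in siChe-1 libraries, against 125, 108 and 125 FPKM in siControl libraries. It fell by 0.35 ± 0.083 on the log2 scale (SE, limma on transcripts, adjusted p = 0.0306). The other AMD1 transcript, NM_001033059, had 61.3, 45.7 and 58.6 FPKM in siChe-1 libraries, against 90.2, 70.4 and 55.2 FPKM in siControl libraries. Its groups overlapped, the siControl library at list position 3 being low, and its log2 change was -0.25 ± 0.21 (SE, limma, adjusted p = 0.436). The difference between the 2 transcripts was not tested. Of the AZIN1 transcripts, NM_148174 had 123, 108 and 118 FPKM in siChe-1 libraries, against 126, 101 and 102 FPKM in siControl libraries. NM_015878 averaged 39.9 ± 2.06 FPKM in siChe-1 and 39.0 ± 3.75 FPKM in siControl (SD, n = 3 each), so it was the lower of the pair in both groups. SAT1 was carried mostly by NM_002970, and its noncoding form NR_027783 averaged 1.99 ± 0.679 FPKM in siChe-1 and 1.94 ± 0.297 FPKM in siControl. By transcript limma called 4 of 11 lower and 0 higher (0 also at an unadjusted p under 0.05), against 10% and 10.1% of all transcripts: ODC1, SMS, MTAP and AMD1 NM_001634. This count was 0 on leaving out the siChe-1 library of position 1 or of position 3 or the siControl library of position 3, and 1 on leaving out the siChe-1 library of position 2 or the siControl library of position 1. Calls fell over all transcripts too: 4.3%, 3.3% and 3.6% were lower in the 3 fits with 0 calls, in that order, and 6.9% and 6.1% in the other two. At an unadjusted p under 0.05, limma gave 4, 4 and 5 of these transcripts in the 3 fits with 0 calls, and the share over all transcripts at that cut was not counted. With list position as a block limma called 5 lower and 0 higher (2 higher at an unadjusted p under 0.05), against 22.4% and 21.2% of all transcripts. The authors' deposited table of transcripts, from Cuffdiff, gave the same adjusted p of 0.000601 for ODC1, SRM, SMS and MTAP, which therefore does not rank them. It gave 0.0180 for AMD1 NM_001634, and the share of all transcripts that it called was not counted. For SRM, whose groups overlapped, limma on transcripts gave an adjusted p of 0.272.

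The wider pathway was followed through 6 further lists, whose counts stand against 15.1% of all genes called lower and 15.1% higher by limma on FPKM, and 15% and 14.3% by edgeR with TMM. Of the 5 genes of hypusine formation, in which spermidine is used to modify the translation factor eIF5A, 2 could be tested on FPKM and limma called 1 lower and 0 higher. EIF5A had 85.8, 97.3 and 98.4 FPKM in siChe-1 libraries, against 150, 181 and 176 FPKM in siControl libraries. The groups were far apart, and EIF5A fell by 0.74 ± 0.11 on the log2 scale (SE, limma, adjusted p = 0.00324), a larger change than that of ODC1, though the difference between them was not tested. EIF5A has a near-identical copy, EIF5AL1, so its reads are uncertain. DHPS, the enzyme that starts the modification, averaged 22.9 ± 3.77 FPKM in siChe-1 and 22.1 ± 2.77 FPKM in siControl (log2 change 0.14 ± 0.14, SE, limma, adjusted p = 0.512).

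Of 15 genes of the methionine cycle and methionine salvage, 10 could be tested on FPKM, and limma called 3 lower (ADI1, AHCY and MTRR) and 2 higher (MAT2B and MTR), against 15.1% each way over all genes. ADI1, a dioxygenase of the salvage pathway downstream of MTAP, had 47.3, 51.5 and 50.7 FPKM in siChe-1 libraries, against 86.0, 93.5 and 94.3 FPKM in siControl libraries. The groups did not overlap and ADI1 fell by 0.77 ± 0.083 on the log2 scale (SE, limma, adjusted p = 0.00115). MAT2B, the regulatory subunit of the enzyme that makes S-adenosylmethionine, had 48.3, 46.0 and 44.9 FPKM in siChe-1 libraries, against 30.4, 30.2 and 30.3 FPKM in siControl libraries. It rose by 0.69 ± 0.074 relative to other genes (SE, limma, adjusted p = 0.00112), while the authors' deposited table gave a log2 change of -0.66 against the spike-ins (adjusted p = 0.192). AHCY, which hydrolyses S-adenosylhomocysteine and was the most abundant of the list, averaged 103 ± 9.43 FPKM in siChe-1 and 146 ± 12.9 FPKM in siControl, a fall of 0.40 ± 0.11 on the log2 scale (SE, limma, adjusted p = 0.0333). For MTR, methionine synthase, named after its values were seen, the log2 change was 0.31 ± 0.075 on FPKM (SE, limma, adjusted p = 0.0199), 0.16 by edgeR with TMM (adjusted p = 0.256, not called) and -1.08 against the spike-ins in the authors' deposited table (adjusted p = 0.0199). The median log2 change of the 10 was -0.024 on FPKM.

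Of 10 genes that supply ornithine and arginine, 4 could be tested on FPKM and limma called 0, also at an unadjusted p under 0.05, while edgeR with TMM called 1 of 7 lower, the mitochondrial ornithine carrier SLC25A15 (log2 -0.52, adjusted p = 0.0155), named after its value was seen. ASS1, which makes argininosuccinate and was the most abundant, averaged 110 ± 13.4 FPKM in siChe-1 and 136 ± 15.8 FPKM in siControl (log2 -0.20 ± 0.13, SE, limma, adjusted p = 0.273). ALDH18A1, which makes an ornithine and proline precursor, differed by -0.16 ± 0.074 (SE, limma, adjusted p = 0.142) and the arginine carrier SLC7A1 by 0.15 ± 0.074 (SE, limma, adjusted p = 0.159). With list position as a block limma called 3 of these 4, ASS1 (adjusted p = 0.0157) and ALDH18A1 (adjusted p = 0.0303) lower and SLC7A1 (adjusted p = 0.0433) higher, against 29.3% and 28.5% of all genes. Of 9 transport genes 3 could be tested and limma called 0 (1 lower at an unadjusted p under 0.05), against 15.1% of all genes each way, and edgeR with TMM called 2 of 6 lower, against 15% of genes, C6orf192 (-0.70, adjusted p = 0.00432) and SLC12A8 (-0.83, adjusted p = 0.00396), also named after their values were seen. The amino acid carrier subunit gene SLC3A2, the most abundant of that list, averaged 153 ± 18.1 FPKM in siChe-1 and 149 ± 20.0 FPKM in siControl (log2 0.13 ± 0.14, SE, limma, adjusted p = 0.507), and CAV1, a caveola protein gene, 10.6 ± 1.55 FPKM in siChe-1 and 14.1 ± 0.486 FPKM in siControl (log2 -0.31 ± 0.12, SE, limma, adjusted p = 0.0811, or 0.0162 with the block). Of 7 other polyamine enzymes and regulators none reached the minimum of 10 FPKM. On the spike-in scale, where it called 63.5% of all genes lower, the authors' deposited table called lower 2 of 4 genes of hypusine formation, 9 of 12 of the methionine list, 7 of 7 of the ornithine and arginine list, 5 of 6 of the transport list, 2 of 4 of the MTAP neighbours and 1 of 3 of the other enzymes and regulators.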

How the data were processed

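The gene members and lists were chosen with earlier results of these data known. The authors aligned reads to hg19 with TopHat and used Cufflinks, Cuffdiff, HTSeq and DESeq2, per the submitters' processing notes, which give no version here. The deposited spike-in table holds, per gene, the authors' group means of normalized reads (signal), the ratio or fold between groups, its log2 and p-values, raw and adjusted. The deposited spike-in counts are raw reads of 92 ERCC controls in 6 libraries, as the authors counted them. Per the file headers the other table holds the authors' FPKM per transcript, with log2 changes and q-values. The sources used here do not state when the spike-ins were added.

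From the group means, whole reads were recovered for 16384 of 16444 genes (99.6%) with size factors from the spike-ins, which fitted siChe-1 replicates 1 and 2 and no other set. The 34 genes with a mean over 60000 were not searched, and 10.1% of siControl and 9.8% of siChe-1 reads were not recovered. The count test was edgeR's quasi-likelihood test (edgeR 4.0.16, R 4.3.3), with DESeq2 1.42.0 as an alternative. The authors' adjusted p was used for genes with a mean of at least 10 normalized reads.

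FPKM were summed by gene on assembled chromosomes, kept at a mean of at least 10 (6285 genes), rescaled by the median of ratios and tested as log2(FPKM + 1) with limma 3.58.1 and a mean-variance trend, with Benjamini-Hochberg adjustment at 0.05. Fold changes on this scale understate those of low genes. Recovery and tests were tested on simulated data. There limma on FPKM called 31% of the genes given a log2 change of 0.5 and 93.5% of those given 1. On simulated reads, drawn with the spread of the spike-in scale, edgeR called 0% at 0.5. At 1 it called 42% with spike-in size factors and 32.5% with TMM. On the recovered reads the spread with TMM was narrower: the SE of ODC1 was 0.14, against 0.33 with spike-in size factors. The simulated TMM shares thus do not describe that test, and how often it misses such changes was not tested. A gene not called by limma on FPKM, or by edgeR on the spike-in scale, may have changed by such an amount. Libraries at list positions 1 and 2 deviated alike (r = 0.405 and 0.658), and those at position 3 only weakly (r = 0.18). There siChe-1 position 3 was closer to siControl position 1 (r = 0.263), and siControl position 3 to siChe-1 position 1 (r = 0.289). Genes named are the 10 members, AATF, MYC, and of each list the 2 with the smallest limma p and the most abundant one; others were named after their values were seen, to account for a count of calls. Alternatives were another scaling, minimum, pseudocount, tool, block, and each library left out.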

Additional observations from a re-analysis of the deposited data

How the results depend on the processing

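SMS and MTAP kept their direction and their side of the threshold on FPKM by gene in all 14 alternatives, and ODC1 in 10 of 14. Against the spike-ins 9 genes were called lower by the authors, against 63.5% of all genes. On recovered reads 10 were called by edgeR and 10 by DESeq2, against 84.4% and 85.2% of genes. With TMM and with the median of ratios, which compare with other genes, edgeR called 4 each time, against 15% and 15.3%. The replicate numbers of the labels form 2 pairs in the spike-in table and are shared numbers only (r = 0.211 and 0.231). With the replicate block, edgeR called 0 members on the spike-in scale, where it called 58 of 12531 genes in all. At an unadjusted p under 0.05 that member count was 5, a cut for which the share over all genes was not counted. In that fit the median log2 change over all genes was -1.14. With TMM and the block edgeR called 5 members lower, against 15.8% of genes. List position as a block, added after seeing the data, gave 6 calls on FPKM, 5 lower and 1 higher, against 29.3% and 28.5% of genes. Leaving out 1 siControl library gave 9 to 10 calls on the spike-in scale, against 65.9% to 93.2% of genes called lower. Leaving out a siChe-1 library leaves 1 in that group, so no count is given for it here. On FPKM, leaving out 1 library gave 2 to 3 calls by gene, against 8% to 14.2% of genes. By transcript it gave 0 to 3, against 3.3% to 6.9% of transcripts. With no rescaling of FPKM 1279 genes were lower and 592 higher, with the upper quartile 713 and 1221, against 948 and 949.

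Signs reversed as follows. With TMM the spike-in values became 0.034 for PAOX, 0.095 for OAZ2, 0.044 for AZIN1 and 0.0099 for SAT1; with the median of ratios 0.028, 0.090, 0.039 and 0.0042 in that order; and with TMM and the block 0.096 for OAZ2 and 0.029 for AZIN1. On FPKM, OAZ2 became -0.035 (minimum 1), -0.048 (no minimum) and -0.064 (no rescaling), and ran between -0.15 and 0.17 without single libraries. SAT1 became 0.0046 with the upper quartile and ran between -0.15 and 0.0022 without single libraries, and OAZ1 between -0.23 and 0.0067. By transcript OAZ2 became -0.028 (minimum 1) and -0.064 (no rescaling), and without single libraries OAZ2 ran between -0.13 and 0.19, OAZ1 between -0.21 and 0.027, and SAT1 NM_002970 between -0.21 and 0.037. For these the cause was not tested. Among ratios, MTAP/SRM became -0.16 on recovered reads and ran between -0.11 and 0.33 without single libraries, and SRM/SMS between -0.14 and 0.28. PAOX had the fewest reads, 65 to 94 per library.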
